A study of Mus musculus with 6 samples.

Results

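The 33 genes described here mark blood vessels and their cells. They were chosen by symbol, with earlier results of these data known, and all 33 were found among the 41214 Ensembl genes of the count files. By role they comprise 22 pan-endothelial genes, 4 arterial genes, 4 genes of veins and capillaries, 2 genes of mural cells and 1 lymphatic gene. Reads were compared between epidermis of wild type (wt, 3 libraries) and ARPC4 knockout (ko, 3 libraries) C57BL/6 mice at postnatal day 4, with trypsin-treated skin as the source in both groups. ARPC4 belongs to the Arp2/3 complex, the nucleator of branched actin networks. The ko titles carry the mark "hom", and the driver of the deletion is not given in the sources used here. Whether the libraries stem from different animals is not stated, and every p-value therefore reflects the spread among these 6 samples.

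Endothelial cells line blood vessels and are joined by VE-cadherin and by claudins. Arteries, veins and capillaries differ in their connexins, Notch ligands and surface receptors, and pericytes and smooth muscle cells, together called mural cells, wrap the endothelial tube. Vessels run in the dermis and normally do not enter the epidermis. In RNA from whole tissue a larger number of cells of a type and more RNA per cell cannot be told apart.

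Promoter sequence from RefSeq (GRCm38.p6, the assembly of mm10) was matched for 19 of the 33 genes. The 250 bases upstream of a RefSeq start are shown for Cd34, Robo4 and the pericyte gene Rgs5, whose log2 fold changes between the groups were among the larger ones, and for Rasip1, whose groups overlapped. Capitals mark the letters AGGAAG or their reverse complement, a form of the core that ETS factors such as Erg and Ets1 bind. The windows lie at chr1:194938571-194938820 for Cd34, chr9:37401722-37401971 for Robo4, chr1:169655251-169655500 for Rgs5 and chr7:45627287-45627536 for Rasip1, all on the plus strand and read 5′ to 3′. They end at RefSeq starts, which for Cd34, Robo4 and Rasip1 lie inside the gene as GENCODE places it.
Cd34: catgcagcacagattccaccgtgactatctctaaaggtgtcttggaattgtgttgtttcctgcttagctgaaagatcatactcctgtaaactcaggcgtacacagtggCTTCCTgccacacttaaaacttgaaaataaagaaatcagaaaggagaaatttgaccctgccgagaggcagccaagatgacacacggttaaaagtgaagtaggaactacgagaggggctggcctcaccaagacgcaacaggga
Robo4: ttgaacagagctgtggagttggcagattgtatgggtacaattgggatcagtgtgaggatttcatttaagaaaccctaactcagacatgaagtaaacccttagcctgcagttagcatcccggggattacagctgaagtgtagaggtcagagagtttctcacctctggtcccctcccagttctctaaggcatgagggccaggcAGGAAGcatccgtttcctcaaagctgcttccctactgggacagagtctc
Rgs5: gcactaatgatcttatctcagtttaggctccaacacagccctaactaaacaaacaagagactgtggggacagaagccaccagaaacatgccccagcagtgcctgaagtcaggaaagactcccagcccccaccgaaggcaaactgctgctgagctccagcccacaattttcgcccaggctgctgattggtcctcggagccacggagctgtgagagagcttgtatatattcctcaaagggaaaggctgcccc
Rasip1: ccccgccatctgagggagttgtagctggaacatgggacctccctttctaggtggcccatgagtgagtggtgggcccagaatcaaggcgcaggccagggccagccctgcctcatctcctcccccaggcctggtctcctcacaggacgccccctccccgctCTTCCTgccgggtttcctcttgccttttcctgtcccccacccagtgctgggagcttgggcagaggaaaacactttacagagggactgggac
On either strand, the letters AGGAAG stood in 10 of the 19 matched genes (11 of their 24 start windows) and in 29.5% of all 32851 windows of that length. The SOX-type letters ACAAAG stood in 5 of the 19 genes (5 of the 24 windows) and in 16.5% of all windows. The GATA-type letters AGATAA stood in 2 of the 19 (2 of the 24 windows) and in 9.99% of all windows. Among the printed windows the Cd34, Robo4 and Rasip1 ones held 1 copy each and the Rgs5 one held 0.

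Per library, 17561294 to 22659511 reads were assigned to genes. Levels are given as CPM, counts scaled to library size by TMM. Keratinocyte markers were abundant in every library, with Krt1 between 31502 and 70327 CPM. The targeted gene Arpc4 lay between 72.5 and 82.5 CPM in wt and between 64.5 and 67.5 CPM in ko, and these counts cannot show which exons were deleted. Basal keratinocyte genes stood lowest in wt replicate 2, with Krt5 at 846.0 CPM there and between 1292 and 5443 CPM in the other 5 libraries. Skeletal muscle markers summed to 22.4 CPM in ko replicate 2 and to at most 3.24 CPM elsewhere. Xist and Ddx3y placed both sexes in each group, in unequal numbers, so the replicates of a group did not all come from 1 animal. Replicates 1 and 2 of each group carry a date in their titles and replicate 3 does not.

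Most vessel genes were at trace level in wt epidermis and higher in ko, while members with a wt mean of 4 CPM or more had overlapping groups. Summed over the 28 members with a wt mean under 4 CPM, wt replicates 1 to 3 held 12.5, 13.6 and 16.3 CPM, against 59.3, 67.2 and 42.8 CPM for ko replicates 1 to 3. That sum was thus higher in each ko library than in any wt library. Over the other 5 members, Sox7, Mcam, Rasip1, Ets1 and Cspg4, the sum was 125, 132 and 125 CPM in wt and 145, 129 and 113 CPM in ko, and the groups overlapped. The limit of 4 CPM was chosen after the values were seen, so neither sum has a test.

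Each ko library was higher than any wt library in 23 of the 33 members, and the reverse order held for 0. Among the 26 members that passed the filter on low counts these numbers were 19 and 0, while 11.3% of all 13704 genes tested had groups apart on the higher side and 8.03% on the lower. In edgeR's quasi-likelihood test 1 member, Mmrn2, rose past an adjusted p of 0.05 over all genes, with 0.219% of all genes called higher. By unadjusted p under 0.05, 19 members were higher and 0 lower, against 7.98 and 5.25% of genes. The log2 fold change was above 0 in 22 of the 26 (53.1% of genes) and at least 1 in 18 (4.71%). The median of the 26 was 1.82, against 0.02 for all genes tested.

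The filter bears on these shares. Of the 26, 14 had fewer than 3 wt libraries at the filter's minimum and passed through the ko libraries. The filter thus favoured higher ko values in them, and 9 of the 26 had 0 wt libraries at that minimum. Among the 14 were Mmrn2, the 1 member called, and Cdh5, Plvap, Rgs5, Robo4 and Tie1, called under other settings. Of the 11 that reached the minimum in all 3 wt libraries, 7 had values above 0, 4 had a log2 fold change of at least 1 and 5 had groups that did not overlap. With no filter all 33 had a value, of which 29 were above 0, and their median was 2.05 against 0.04 for the 22318 genes. That fit called Cd34 and Mmrn2 (0.246% of genes called higher).

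The number of members past the threshold varied widely with the tool. DESeq2 called 14, all higher, where it called 2.82% of genes higher. These were Cd34, Cdh5, Dll4, Ecscr, Egfl7, Esam, Mmrn2, Pecam1, Plvap, Ptprb, Rgs5, Robo4, Tie1 and Vwf. In limma-voom 0 members and 0 genes passed, with 19 members at an unadjusted p under 0.05. A filter of 1 CPM in 3 libraries left 0 members called and 0.142% of genes higher, the older quasi-likelihood fit 0 and 0.131%, and total-count scaling 1 and 0.146%. Leaving out ko replicate 3 gave 4 members (Cdh5, Mmrn2, Rgs5 and Robo4) and 0.457% of genes, leaving out ko replicate 1 gave 0 and 0.193%, and without any other single library 0 members and 0 genes passed, with at least 16 members at an unadjusted p under 0.05.

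**Figure D1:**
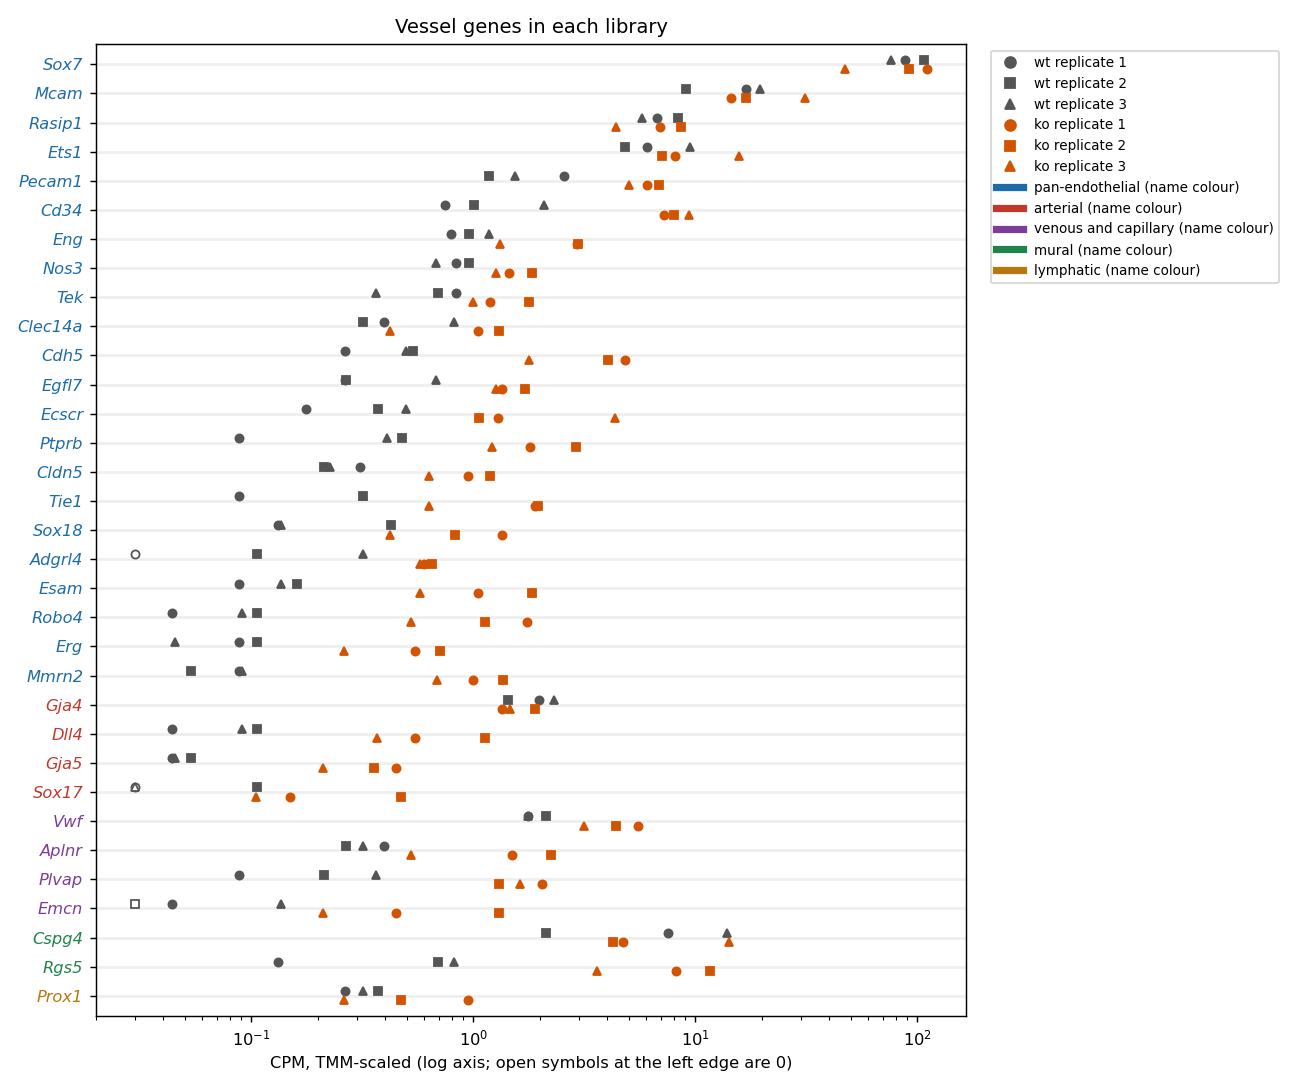
Level of each of the 33 vessel genes in the 6 libraries, in CPM on a log axis, with wt in grey and ko in orange, 1 symbol per replicate number and gene names coloured by role. The orange symbols all lie to the right of the grey ones in 23 genes and mix with them in the other 10, among them Sox7, Mcam, Rasip1, Ets1, Cspg4 and Gja4.

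Junction proteins of the endothelium were at trace level in wt. Cdh5 (ENSMUSG00000031871, chromosome 8, 104101625 to 104144511, mm10), which encodes VE-cadherin of the adherens junction, had 6, 10 and 11 reads in wt replicates 1 to 3 and 97, 68 and 34 reads in ko replicates 1 to 3. In CPM this was 0.432 ± 0.146 and 3.54 ± 1.57 (SD, n = 3), and the groups did not overlap. The log2 fold change was 3.04 (95% interval 1.84 to 4.24, edgeR adjusted p = 0.0822), short of edgeR's threshold. Pecam1 (chromosome 11, 106654217 to 106750628), the adhesion molecule CD31, which platelets and leukocytes also carry, stood at 2.55, 1.17 and 1.54 CPM in wt, against 6.06, 6.86 and 5.04 CPM in ko. Its groups did not overlap, and its log2 fold change was 1.75 (0.99 to 2.52, adjusted p = 0.0941). Esam, an immunoglobulin-like molecule of endothelial tight junctions, had 2, 3 and 3 reads in wt and 21, 31 and 11 in ko (log2 fold change 3.11, adjusted p = 0.0946). Cldn5, the main claudin of endothelial tight junctions, had 7, 4 and 5 reads in wt and 19, 20 and 12 in ko (1.84, adjusted p = 0.127). All 4 junction genes thus had non-overlapping groups, against 11.3% of all genes tested on the higher side. Of the 4 only Pecam1 reached the filter's minimum in all wt libraries. None passed in edgeR, and DESeq2 called Cdh5, Pecam1 and Esam (2.82% of genes called higher).

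The angiopoietin receptor Tek, its co-receptor and its phosphatase had ko above wt throughout (11.3% of genes tested). None of the 3 passed in edgeR, and DESeq2 called Tie1 and Ptprb (2.82% of genes called higher). Tek, also called Tie2, had 19, 13 and 8 reads in wt and 24, 30 and 19 in ko, a log2 fold change of 1.05 (0.09 to 2.01, adjusted p = 0.331). Tie1, the related co-receptor, had 2, 6 and 7 reads in wt and 38, 33 and 12 in ko (2.62, adjusted p = 0.147). Ptprb, the phosphatase VE-PTP that acts on Tek and on VE-cadherin, had 2, 9 and 9 reads in wt and 36, 49 and 23 in ko (2.60, adjusted p = 0.126). The ligands of Tek are not among the 33 genes. Angpt2, the ligand released by activated endothelium and named here after its values were seen, had 15.2, 22.1 and 15.0 CPM in wt, against 9.34, 2.84 and 2.57 CPM in ko. Its groups did not overlap, on the lower side, with a log2 fold change of -1.81 (-3.01 to -0.61, adjusted p = 0.189 by edgeR and 0.0105 by DESeq2). Without ko replicate 1 it was -2.69 and passed in edgeR (adjusted p = 0.0491). Without any other single library it lay between -1.95 and -1.53 and did not pass (edgeR adjusted p between 0.1902 and 0.4745). In wt Angpt2 had 345, 416 and 331 reads, far more than Tek, and which cells made it was not tested. Angpt1 had 1 to 4 reads in every library.

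Mmrn2 (ENSMUSG00000041445, chromosome 14, 34375465 to 34404287), multimerin 2, a matrix glycoprotein of the vessel wall, was the 1 member that rose past the threshold. It had 2, 1 and 2 reads in wt and 20, 23 and 13 in ko, and passed the filter through its ko libraries. The level was 0.0773 ± 0.0209 CPM in wt and 1.01 ± 0.339 CPM in ko (SD, n = 3), a log2 fold change of 3.57 (SE 0.47, 95% interval 2.49 to 4.65, edgeR adjusted p = 0.0407). Leaving out wt replicate 1, 2 or 3 or ko replicate 1 or 2 ended the call (adjusted p between 0.0624 and 0.378), as did limma-voom (adjusted p = 0.0753). Its binding partners on the endothelial surface are the lectin-like receptors Clec14a and Cd93. Clec14a had 9, 6 and 18 reads in wt and 21, 22 and 8 in ko, so its groups overlapped (0.81, adjusted p = 0.603). Cd93, not a member, had 12, 18 and 14 reads in wt and 89, 133 and 34 in ko (2.73, adjusted p = 0.128).

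Other surface and secreted proteins of endothelium stood apart between the groups to different degrees. Cd34 (ENSMUSG00000016494, chromosome 1, 194938819 to 194961279), a sialomucin also made by hair follicle stem cells and dermal cells, stood at 0.748, 1.01 and 2.09 CPM in wt, against 7.26, 7.98 and 9.34 CPM in ko. Its log2 fold change was 2.67 (1.77 to 3.56, adjusted p = 0.0637 by edgeR and 2.38e-08 by DESeq2). Robo4 (chromosome 9, 37401897 to 37415115), a roundabout receptor of endothelial cells, had 1, 2 and 2 reads in wt and 35, 19 and 10 in ko, a log2 fold change of 3.75 (2.29 to 5.20, adjusted p = 0.0669). Eng, the TGF-beta co-receptor endoglin, stood at 0.792, 0.957 and 1.18 CPM in wt, against 2.93, 2.96 and 1.31 CPM in ko (1.29, adjusted p = 0.231). In Cd34 and Robo4 the gap between the groups was wide, while in Eng ko replicate 3 lay just above wt replicate 3.

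Egfl7, a secreted vessel protein, had 6, 5 and 15 reads in wt and 27, 29 and 24 in ko (1.80, adjusted p = 0.140, and 2.39 without wt replicate 3). Ecscr, an endothelial surface protein, had 4, 7 and 11 reads in wt and 26, 18 and 83 in ko (2.68, adjusted p = 0.184), so that ko replicate 3 alone held most of its reads, and the value was 1.72 without it. Adgrl4, an adhesion receptor, had 0, 2 and 7 reads in wt and 12, 11 and 11 in ko (2.05, adjusted p = 0.284), which moved to 3.47 without wt replicate 3 and to 1.41 without wt replicate 1. The ko libraries lay above the wt ones in all 3 of these genes (11.3% of genes tested). Nos3, the endothelial nitric oxide synthase, had 19, 18 and 15 reads in wt and 29, 31 and 24 in ko (0.87, adjusted p = 0.275). Nos3 shares 294 exon bases with Atg9b on the opposite strand, whose mean was 306 CPM for wt and 256 CPM for ko. Whether counting used the strand is not given in the sources used here, so the Nos3 reads are uncertain.

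Mcam and Rasip1 had overlapping groups at higher levels. Mcam, the adhesion molecule CD146 of endothelial and mural cells, stood at 16.9, 9.04 and 19.6 CPM in wt, against 14.5, 16.9 and 31.3 CPM in ko (0.46, 95% interval -0.45 to 1.37, adjusted p = 0.708). Rasip1, a Ras-interacting protein needed for vessel lumens, stood at 6.69, 8.35 and 5.76 CPM in wt, against 6.96, 8.57 and 4.41 CPM in ko (-0.06, -0.75 to 0.62, adjusted p = 0.958), and at 0.13 without ko replicate 3. The groups overlapped in both genes. Rasip1 shares 654 exon bases with Izumo1 on the same strand.

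Transcription factors of endothelium were low in wt, apart from Sox7 and Ets1. Erg, an ETS factor that maintains endothelial identity, had 2, 2 and 1 reads in wt and 11, 12 and 5 in ko, too few to pass the filter, with ko above wt throughout. Sox18, a SoxF factor of vessels and lymphatics, had 3, 8 and 3 reads in wt and 27, 14 and 8 in ko, and its groups overlapped. Sox7 (ENSMUSG00000063060, chromosome 14, 63943673 to 63950732), another SoxF factor, was the most abundant of the 33 genes, at 87.6, 107 and 76.4 CPM in wt, against 110, 91.7 and 47.3 CPM in ko. Its log2 fold change was -0.12 (-0.85 to 0.61, adjusted p = 0.919), which turned to 0.13 without ko replicate 3. Ets1, an ETS factor that lymphocytes also make, stood at 6.08, 4.84 and 9.43 CPM in wt, against 8.10, 7.10 and 15.7 CPM in ko (0.60, -0.31 to 1.51, adjusted p = 0.588).

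**Figure D2:**
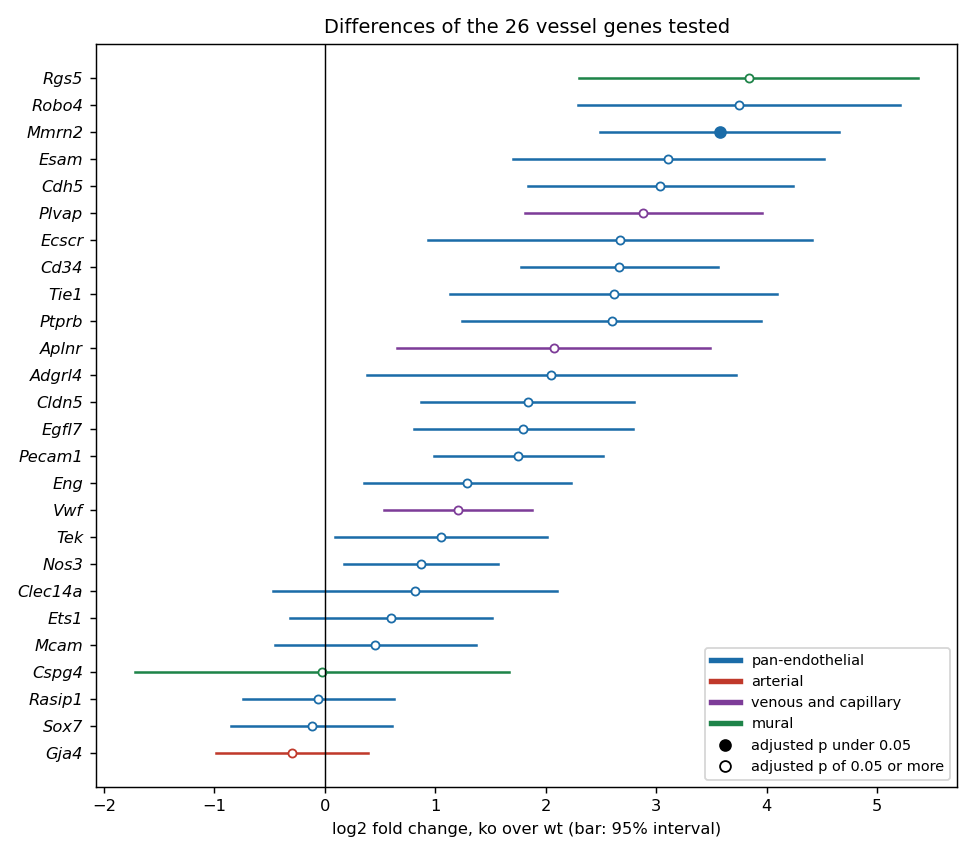
Log2 fold change of ko over wt with its 95% interval for the 26 vessel genes tested, coloured by role, with the filled point for the gene past the adjusted threshold. The interval lies above 0 in 19 genes and spans 0 in Clec14a, Ets1, Mcam, Cspg4, Rasip1, Sox7 and Gja4.

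Per length of transcript the abundant members stood far above the rest in wt. Sox7 stood at 27.4 CPM per kb of exon in wt, followed by Mcam at 4.53, Rasip1 at 2.17, Gja4 at 1.13, Ets1 at 0.80 and Cspg4 at 0.656. The other 20 members tested lay at or below 0.282 CPM per kb in wt, the level of Pecam1. In ko Cdh5 reached 0.843, Pecam1 0.961, Cd34 1.12 and Rgs5 1.72 CPM per kb, still below Sox7 at 25.2 and Mcam at 6.23. Of the 20 lower members 14 passed the filter through their ko libraries, so that the order of the differences by wt level is partly fixed by the filter.

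**Figure D3:**
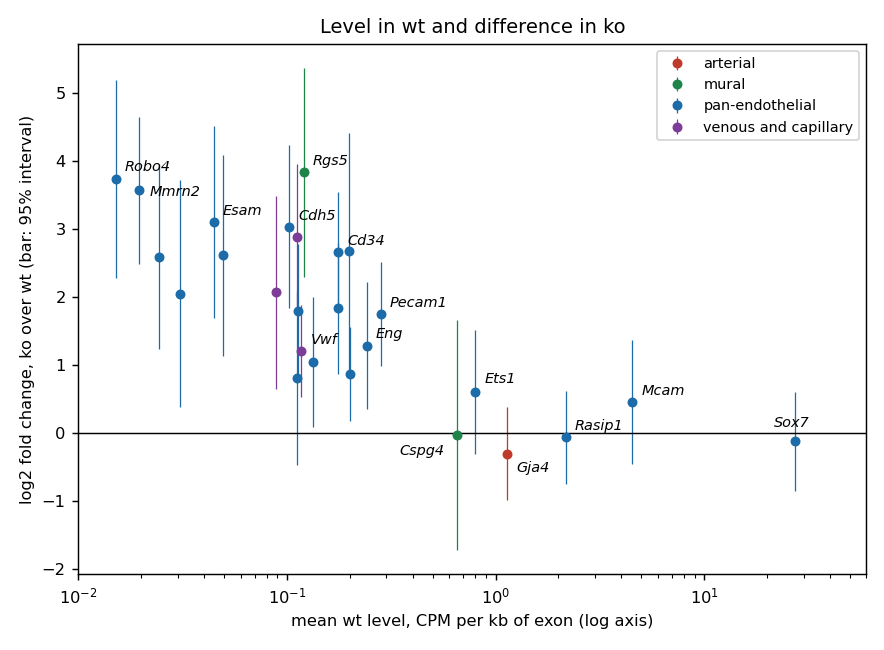
Mean wt level in CPM per kb of exon on a log axis against the log2 fold change of ko over wt with its 95% interval, for the 26 members tested. The 6 members above 0.5 CPM per kb lie between -0.30 and 0.60, and the 20 below it between 0.81 and 3.84.

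Of the 4 arterial members 2, neither of them tested, had groups apart on the higher side, against 11.3% of all genes tested. Of the 4, edgeR tested 1 and called 0. The connexin gene Gja4 (chromosome 4, 127311421 to 127314039), the 1 arterial member that passed the filter, encodes connexin 37 and stood at 1.98, 1.44 and 2.31 CPM in wt, against 1.34, 1.89 and 1.47 CPM in ko. Its groups overlapped and its log2 fold change was -0.30 (-0.99 to 0.39, adjusted p = 0.759). Gja5, the gene of connexin 40, had 1 read in each wt library and 9, 6 and 4 reads in ko. Dll4, the Notch ligand of arteries and tip cells, had 1, 2 and 2 reads in wt and 11, 19 and 7 in ko, and DESeq2 called it (adjusted p = 0.0432). Sox17, the SoxF factor of arteries, had 0, 2 and 0 reads in wt and 3, 8 and 2 in ko. Gja5 and Dll4 had non-overlapping groups, while Gja4 and Sox17 overlapped. Gja5 shares 165 exon bases with Gpr89, on the opposite strand, at 22.2 and 22.0 CPM.

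All 4 members of veins and capillaries were higher in each ko library than in any wt library. This held for the 3 that were tested, against 11.3% of all genes tested. Plvap (chromosome 8, 71497765 to 71511752), which forms the diaphragms of fenestrae, had 2, 4 and 8 reads in wt and 41, 22 and 31 in ko, a log2 fold change of 2.88 (1.81 to 3.96, adjusted p = 0.0694). Vwf (chromosome 6, 125546774 to 125686679), von Willebrand factor of endothelial storage granules, stood at 1.76, 2.13 and 1.77 CPM in wt, against 5.52, 4.38 and 3.15 CPM in ko (1.21, 0.54 to 1.88, adjusted p = 0.140). Aplnr, the apelin receptor, had 9, 5 and 7 reads in wt and 30, 38 and 10 in ko (2.07, adjusted p = 0.204). Emcn, a sialomucin of veins and capillaries, had 1, 0 and 3 reads in wt and 9, 22 and 4 in ko and was not tested. Its groups were apart only by the 3 reads of wt replicate 3 against the 4 of ko replicate 3. None of the 4 passed edgeR's adjusted threshold, and DESeq2 called Plvap and Vwf (2.82% of genes called higher).

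The 2 mural members differed from each other. Rgs5 (ENSMUSG00000026678, chromosome 1, 169655501 to 169695813), a regulator of G-protein signalling made by pericytes, had 3, 13 and 18 reads in wt and 164, 197 and 69 in ko. The level was 0.547 ± 0.364 CPM in wt and 7.81 ± 4.03 CPM in ko (SD, n = 3), with a log2 fold change of 3.84 (2.30 to 5.37, adjusted p = 0.0822). It was the largest difference among the 26 members tested and did not pass edgeR's threshold. Cspg4, the proteoglycan NG2, which some keratinocytes and glial cells also make, stood at 7.53, 2.13 and 13.8 CPM in wt, against 4.72, 4.26 and 14.2 CPM in ko (-0.03, -1.72 to 1.67, adjusted p = 0.993). Without wt replicate 3 its value was 0.66, without ko replicate 3 it was -0.84, and without ko replicate 1 or 2 it was 0.23 or 0.26. Cspg4 was lowest in wt replicate 2 and highest in both undated libraries, as Krt5 was. Prox1, the factor that sets lymphatic identity, had 6, 7 and 7 reads in wt and 19, 8 and 5 in ko, and its groups overlapped.

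Other genes of the same cell types, from a list of 49 that holds none of the 33, were examined next. Of these, 26 were tested and 2 rose, Flt1 and Myh11, with 0.219% of all genes called higher. Unadjusted p under 0.05 marked 12 as higher and 1, Angpt2, as lower, against 7.98 and 5.25% of genes. The filter bears on these shares too. Flt1 and Myh11 did not reach its minimum in all wt libraries and passed through their ko libraries, which favoured higher ko values. DESeq2 called 11 of the 49, 10 of them higher, against 2.82% of genes called higher. The median log2 fold change of the 26 tested was 0.96. Flt1, a VEGF receptor, had 12, 8 and 8 reads in wt and 145, 116 and 261 in ko (4.38, adjusted p = 0.0407). Myh11, the myosin heavy chain of smooth muscle, had 9, 12 and 13 reads in wt and 85, 84 and 54 in ko (2.88, adjusted p = 0.0459). Leaving out wt replicate 1, 2 or 3 or ko replicate 2 ended both calls (adjusted p between 0.0997 and 0.378), and leaving out ko replicate 1 ended that of Myh11 (adjusted p = 0.0802).

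Further endothelial, venous and mural genes had groups that did not overlap. The 4 named here were not called by edgeR and were all called higher by DESeq2 (2.82% of genes called higher). Pdgfrb, the PDGF receptor of pericytes and fibroblasts, had 7, 4 and 7 reads in wt and 63, 51 and 19 in ko (3.04, adjusted p = 0.0946). Sele, the E-selectin of activated venules, had 0, 0 and 3 reads in wt and 13, 17 and 21 in ko (4.11, adjusted p = 0.0850). That value rests on the 3 wt reads and was 7.16 without wt replicate 3 and 3.50 without wt replicate 1. Stab1, a scavenger receptor of sinusoidal endothelium and macrophages, stood at 11.2, 11.8 and 5.08 CPM in wt, against 59.0, 102 and 34.7 CPM in ko (2.80, adjusted p = 0.0850). Icam2, an endothelial adhesion molecule, had 1, 0 and 4 reads in wt and 16, 13 and 15 in ko (3.22, adjusted p = 0.0946, and 4.69 without wt replicate 3). By role, 14 of 21 other endothelial, 2 of 7 arterial, 3 of 6 venous, 5 of 10 mural and 0 of 5 lymphatic genes were higher in each ko library than in any wt library. Over the 26 tested this held for 13, against 11.3% of all genes tested. Pdgfrb, Sele and Icam2 passed the filter through their ko libraries, so it favoured higher ko values in them.

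Markers of other cell types of the skin were set beside these values. Fibroblast markers were higher in ko as well. Their 12 genes, none at 0 in any library, summed to 184 to 458 CPM in wt, against 985 to 1950.4 CPM in ko. In 8 of the 12 each ko library was higher than any wt library, against 11.3% of genes tested. edgeR called 0 of the 12, with 10 higher by unadjusted p under 0.05 (7.98% of genes), and DESeq2 called 7, all higher (2.82% of genes). The matrix protein Postn made up much of ko replicate 3. Without it the fibroblast sum was 72.2, 144 and 188 CPM for wt replicates 1 to 3, against 634, 816 and 194 CPM for ko replicates 1 to 3. In the undated pair that sum was thus 188 and 194 CPM, while the 28 low vessel members summed to 16.3 and 42.8 CPM. The part of fibroblast RNA in the vessel result was not tested.

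Red cell markers had overlapping sums. Their 6 genes gave 8.63 to 9.75 CPM in wt, against 6.45 to 9.44 CPM in ko. The 5 platelet markers gave 11.6 to 15.8 CPM in wt, against 13.8 to 16.4 CPM in ko, most of it from Gp1bb, and Gp9, a defining one, was at 0 in all 6 libraries. The groups were apart on the higher side in 2 of the 5, both called by DESeq2 (2.82% of genes called higher). Among the 2 platelet genes that passed the filter, 1 had groups apart (11.3% of genes tested). Ppbp, a platelet chemokine, had 0, 0 and 1 reads in wt and 6, 8 and 22 in ko and did not pass the filter. Itga2b, an integrin of platelets, had 59, 35 and 62 reads in wt and 81, 83 and 152 in ko (1.21, adjusted p = 0.184). Macrophage markers gave 36.7 to 65.4 CPM in wt, against 68.5 to 89.3 CPM in ko. Their groups were apart in 2 of 8 genes and in 1 of the 7 tested (11.3% of genes tested). Of these the mannose receptor Mrc1 had the largest difference, at 0.484, 0.745 and 1.09 CPM in wt, against 4.18, 3.96 and 6.50 CPM in ko (2.65, adjusted p = 0.0637). Schwann cell markers gave 28.0 to 39.3 CPM in wt, against 48.6 to 67.6 CPM in ko, and mast cell markers 3.79 to 4.94 against 8.30 to 13.5 CPM. In the mast cell list the groups were apart in 1 of 5 genes and in 1 of the 2 tested (11.3% of genes tested). Kit held 167 of the 181 reads of that list in ko replicate 3. The neutrophil list gave 5.81 to 7.45 CPM in wt, against 84.1 to 289 CPM in ko, with the defining marker Ly6g at 0 in all 6 libraries. Most of it came from S100a8 and S100a9, with 2313 and 2950 of the 5518 reads in ko replicate 3. Mpo and Retnlg had 0 to 4 reads per library. The 3 genes of this list that were tested were all called higher by edgeR (0.219% of genes). Melanocyte markers gave 61.6 to 74.0 CPM in wt, against 79.5 to 128 CPM in ko. Of these 6 genes 2 had groups apart (11.3% of genes tested) and 3 were higher by unadjusted p under 0.05 (7.98% of genes). edgeR and DESeq2 called 0 of them. Skeletal muscle, adipocyte, T cell and Langerhans cell sums overlapped between the groups. The part of these cells in the vessel result was not tested.

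**Figure D4:**
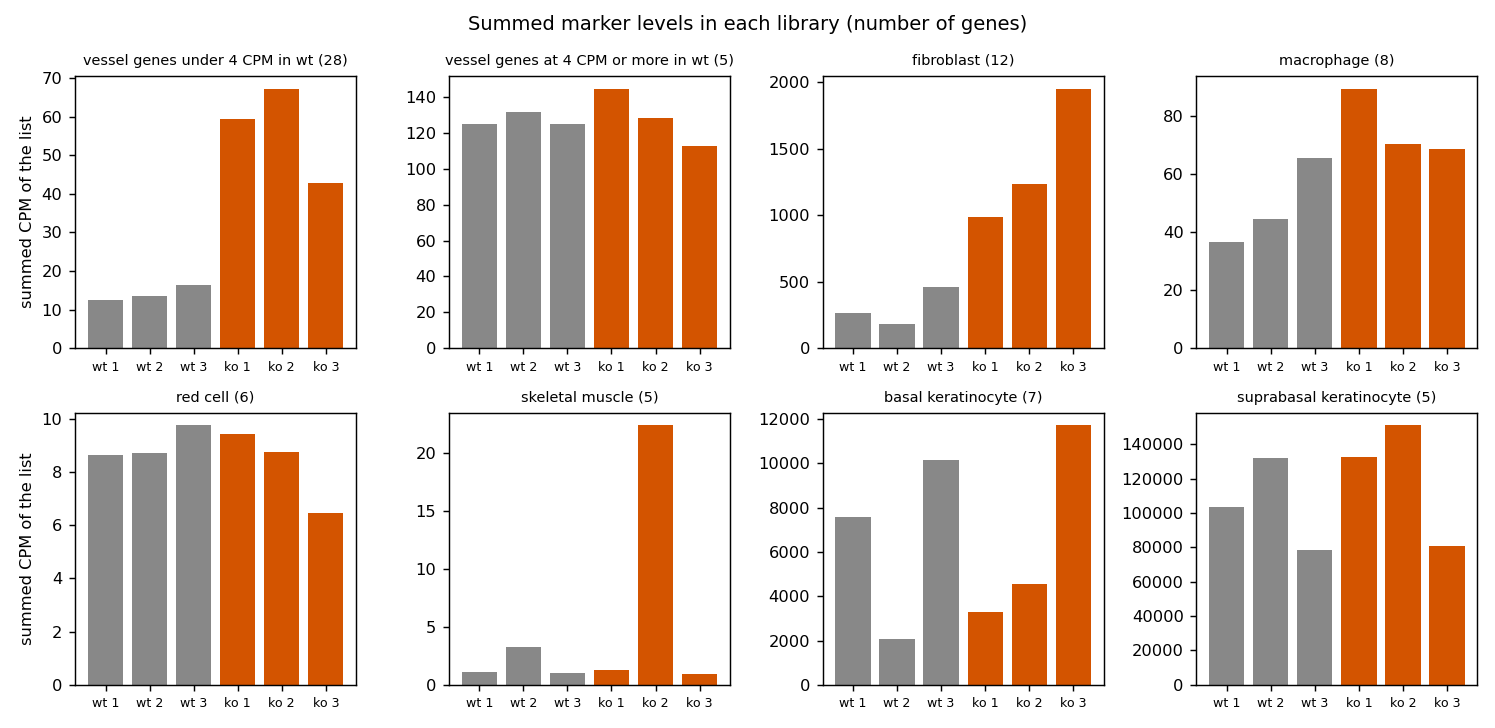
Summed CPM of marker lists in each of the 6 libraries, 1 bar per library, with wt in grey and ko in orange and each axis starting at 0. The low vessel genes sum to 12.5 to 16.3 CPM in wt and 42.8 to 67.2 CPM in ko. The red cell sums lie between 6.45 and 9.75 CPM throughout, with single red cell genes going both ways.

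The ko libraries differed among themselves. Ko replicate 3 was the lowest of the 3 in 26 of the 33 members and the highest in 5. Its level over the mean of the other two ko libraries had a median of 0.523 over the 33 members. The ratio was 0.240 for Emcn, 0.281 for Aplnr and 0.328 for Tie1 at the low end, and 3.69 for Ecscr, 3.15 for Cspg4, 2.06 for Ets1 and 1.23 for Cd34 at the high end. Over the 12 fibroblast markers the median ratio was 0.272. Plvap, Adgrl4 and Gja4 were close to even, at 0.974, 0.925 and 0.908.

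Each numbered pair of libraries showed the same direction for most members. Ko replicate 1 lay above wt replicate 1 in 30 of the 33, ko replicate 2 above wt replicate 2 in 32 and ko replicate 3 above wt replicate 3 in 28. Where the wt library had reads, the median ko over wt ratio of CPM was 5.08, 5.71 and 2.37 for pairs 1 to 3. In the undated pair the 5 members that were not higher in ko were Clec14a, Sox7, Gja4, Rasip1 and Prox1. Among the 4 dated libraries alone edgeR called 7 members, all higher (Cd34, Cdh5, Mmrn2, Plvap, Rgs5, Robo4 and Tie1), with 1.16% of genes called higher there. In those libraries Rgs5 was at 4.62, Adgrl4 at 3.50, Tie1 at 3.24, Egfl7 at 2.47 and Clec14a at 1.65 on the log2 scale. A covariate for whether a title carries a date gave 13 called members, all higher, and 3.2% of genes. With the replicate number as a block it called 9, all higher, and 1.85% of genes. The undated pair has 1 library per group and allows no test.

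**Figure D5:**
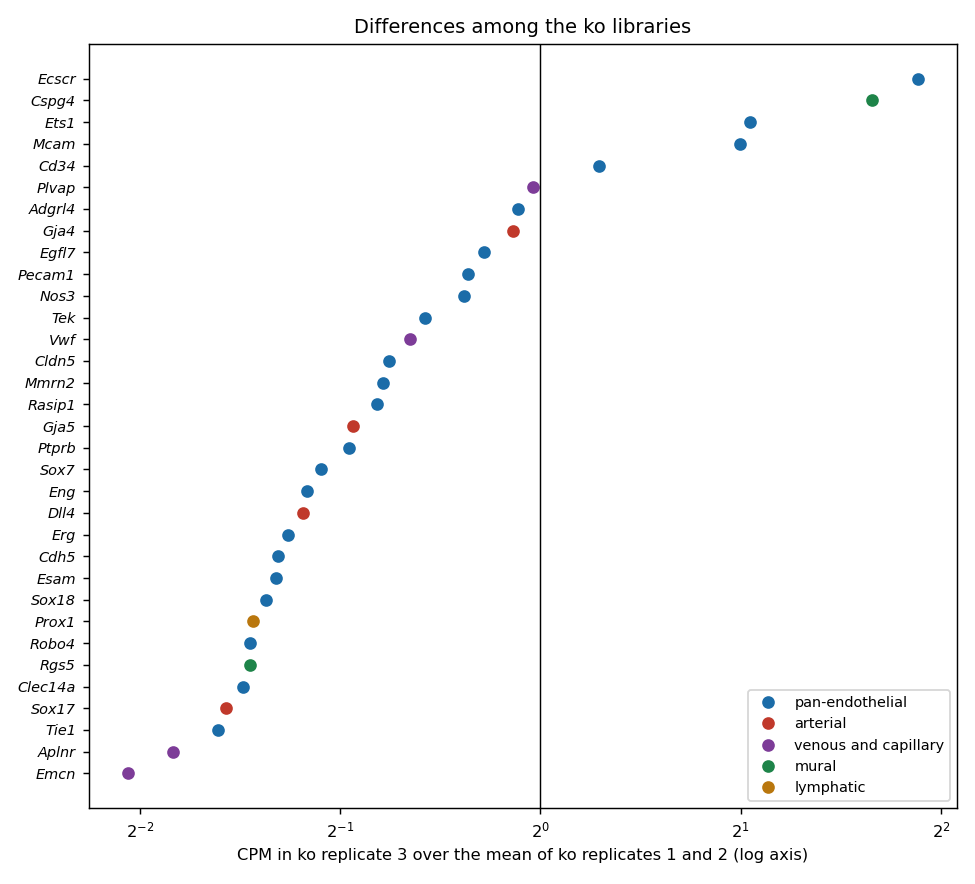
CPM in ko replicate 3 over the mean of ko replicates 1 and 2 for each of the 33 members, on a log axis with base 2 and coloured by role. Of the 33 points 28 lie left of the line at 1, and Ecscr, Cspg4, Ets1, Mcam and Cd34 lie right of it.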

How the data were processed

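RNA of trypsin-separated epidermis had been sequenced as single-end reads of 51 bp from stranded libraries, per the labels' protocols. The deposited values are raw read counts per Ensembl gene. HTSeq, Bowtie 1.1, TopHat2 2.0.12 and the mm10 build are named in the submitters' processing notes. The sources used here do not give settings, the strand option or the annotation. Reads that aligned to more than 1 place (32.4 to 40.9% of all reads listed), that overlapped several genes (0.38 to 0.499%) or none (0.341 to 0.377%) were not in gene counts and stayed out of library sizes and tests.

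Groups came from the genotype label and replicate numbers from marks in the titles (I, II and Tryp as 1, 2 and 3). Replicates of a group differed beyond sampling noise (chi-square over its degrees of freedom at least 26.3). Symbols came from a gene name table (40254 of 41214 identifiers), coordinates and exon lengths from GENCODE M21 on GRCm38. Of the 33 members, 11 share exon bases with another annotated gene.

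Counts were fitted with edgeR 4.0.16 in R 4.3.3 (filterByExpr, which kept 13704 genes, TMM, robust glmQLFit with the newer settings, glmQLFTest, group only). Benjamini-Hochberg adjustment ran over all genes tested (threshold 0.05). Each SE is the size of the log2 value divided by root F. Alternatives were other scalings and filters, DESeq2 1.42.0, limma-voom 3.58.1, a replicate block, a title-date covariate, the dated libraries alone and leaving out each library. The older quasi-likelihood fit was added after seeing the data. The tests were checked on simulated data. The members and lists were chosen with earlier results of these data known. Every member may be named, with the 6 smallest p among the other vascular genes, and the most abundant and smallest-p gene of other lists. Trdc and Flg of those lists are not analysed here.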

Additional observations from a re-analysis of the deposited data

How the results depend on the processing

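The direction of the vessel genes depended little on the processing and the number of calls depended on it strongly. The members' median log2 fold change was 1.82 and ran from 1.64 to 2.02 when each library was left out in turn. It was 1.21 with a filter of 1 CPM in 3 libraries, which tested 17 members only. No member changed sign between TMM, DESeq2 size factors and total counts.

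The count of members called was 1 in the reported fit, 1 with either other scaling, 2 with no filter, 0 with the 1 CPM filter, 14 with DESeq2, 0 with limma-voom, 0 with the older quasi-likelihood fit (added after seeing the data), 13 with the title date as a covariate and 7 in the 4 dated libraries. Counts over all genes, in place of 30, were 20 with total counts, 57 with no filter, 18 with the 1 CPM filter, 650 with DESeq2, 0 with limma-voom, 18 with the older fit, 709 with the covariate and 227 in the dated libraries. Of the other vascular genes, 2 were called in the reported fit, 1 with the 1 CPM filter, 11 with DESeq2, 0 with limma-voom, 1 with the older fit, 8 with the covariate and 8 in the dated libraries. Beside the counts of 0, 11 members had an unadjusted p under 0.05 with the 1 CPM filter and 19 with limma-voom and with the older fit. Leaving out each library in turn gave 0 to 4 members, 0 to 64 genes and 0 to 6 other vascular genes, with 16 to 22 members at an unadjusted p under 0.05. The 4 members came without ko replicate 3. The cause of these differences was not tested.

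Same-numbered libraries correlated at -0.19, 0.47 and 0.67 in their deviations from the group means, and differently numbered ones at -0.69 to 0.51. The undated pair had the highest value. Whether the numbers mark true pairs was not tested. With the replicate block edgeR called 9 members, 354 genes and 6 other vascular genes.

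Values near 0 changed sign. Sox7 was at 0.024 in the dated libraries and ran from -0.38 to 0.13 when each library was left out. Rasip1 was at 0.018 and ran from -0.28 to 0.13, and Cspg4 ran from -0.84 to 0.66 and was at 0.074 with limma-voom and 0.033 with the replicate block. Over the single genes named, 448 of these values kept their direction and their side of the threshold, 70 passed it newly, 20 no longer passed and 11 changed sign. Most members had under 50 reads per wt library, so counting error adds to the spread between replicates.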
